A study of Mus musculus with 4 samples.

Results

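The nuclear genes of the mitochondrial respiratory chain and of ATP synthase were compared between plasmacytoid dendritic cells (pDCs) of wild-type (WT) and Flt3 knockout (Flt3 KO) mice. Members were defined by gene symbol, with no measured value in the rule: symbols that begin with Nduf, Uqcr, Cox4i, Cox5, Cox6, Cox7, Cox8 or Atp5, plus Sdha, Sdhb, Sdhc, Sdhd, Cyc1 and Cycs, with Cox6a2 left out. This gave 90 of the 19938 genes that had a probe set with a single symbol. They comprised 34 subunits of complex I, the 4 subunits of complex II, 10 genes of complex III with cytochrome c, 17 of complex IV with its isoforms, 17 of ATP synthase, 7 assembly factors of complex I, and the paralog Ndufa4l2, which is placed in none of the complexes.

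The arrays measured RNA of cells labelled pDCs, from spleens that had been digested with collagenase B and DNase, from mice at steady state. pDCs are a dendritic cell type known for its output of type I interferon, and Flt3 is the gene of a receptor tyrosine kinase whose ligand drives the development of dendritic cells. There were 2 biological replicates of each genotype, each on its own array, and the labels give no treatment, time point or second allele for either genotype. The knockout design, the strain and age of the mice, and how the cells were purified and any pooling of animals were left unstated by the labels, so p-values measure the spread between these samples.

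Oxidative phosphorylation couples the oxidation of NADH and succinate to ATP synthesis. Complexes I and II pass electrons to coenzyme Q, complex III passes them on to cytochrome c, and complex IV to oxygen, while complexes I, III and IV pump the protons that drive ATP synthase. A few hydrophobic subunits are encoded in mitochondrial DNA and all others in the nucleus, so that both genomes contribute to every complex except complex II. In dendritic cells this pathway is known as a main source of ATP at rest, and pDCs are known to raise it after Toll-like receptor stimulation.

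Flt3 itself had log2 intensities of 10.71 and 10.77 in WT, against 8.46 and 8.61 in Flt3 KO, a difference of −2.21 (limma adjusted p = 7.4e-05), in the direction of the labels; without WT replicate 1 or 2 its adjusted p was 0.063 or 0.074. The median deposited intensity ranged from 55.1 to 57.2 over the 4 arrays and the upper quartile from 206.2 to 214.6, with the 2 lowest upper quartiles in the Flt3 KO arrays. Among 12 measured pDC markers, Siglech, Bst2 and Tcf4 were at 12.52, 12.85 and 12.21 in Flt3 KO cells, against 5.89 for the median gene, and 11 of the 12 were lower in Flt3 KO, 6 of them past the threshold. Monocyte and macrophage markers went the other way, with 16 of 18 measured ones higher in Flt3 KO, of which 6 passed the threshold. Their summed intensity was 5272 and 4912 in WT, against 6043 and 7714 in Flt3 KO replicates 1 and 2. Cd14, the lipopolysaccharide co-receptor of monocytes, was at 8.34 and 8.26 in WT, against 9.11 and 9.65 in Flt3 KO. Of 6 plasma cell markers, 2 were called higher, with differences of 1.20 for Jchain and 0.94 for Slamf7. Another of them, Xbp1, was called lower, at −0.25. No B, T or NK cell, conventional dendritic cell, neutrophil, erythroid, platelet or progenitor marker passed the threshold, though all 4 platelet markers were higher in Flt3 KO. In bulk samples a smaller share of cells of a type and less RNA per cell cannot be told apart.

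None of the 90 members passed the threshold, a limma adjusted p under 0.05 over all 19938 genes. Of the members, 0 were called higher and 0 lower, where 2.39% of all genes were called, 1.08% higher and 1.31% lower. Cox6a2 and ND3, subunits of the chain that are not members, passed it and are described below. The members leaned one way. With an unadjusted limma p below 0.05, 30 of the 90 (33.3%) were lower in Flt3 KO and 1 was higher, beside 10.1% and 6.95% of all genes and 17.1% in either direction. That count moved with the settings: 15 members were lower and 3 higher after cyclic loess normalization, 18 and 3 after quantile normalization, and 14 and 1 without the intensity trend. It was 12 lower without WT replicate 2 or without Flt3 KO replicate 1, 18 without WT replicate 1 and 27 without Flt3 KO replicate 2. Over all genes the share in either direction was 16% under both of these normalizations. In the main fit it was higher among bright genes: 25.5% of those at or above the median level, beside 29 of 82 members. The difference (Flt3 KO minus WT, log2) was below 0 for 74 of the 90, or 82.2%, beside 50.3% of all genes, and its median was −0.10, which equals an intensity 6.89% lower, beside −0.0010 for all genes. The replicates of the genotypes did not overlap for 57 genes with lower and 2 genes with higher Flt3 KO values; over all genes such separation was seen downward for 25.3%, upward for 21.9% and in all for 47.2%. Of the members, 14 differed by at least 0.2 downward, 1 by at least 0.2 upward, and 75 by less than 0.2.

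Genes with bright probe sets as a whole leaned lower too, by less than the members. Among the 9969 genes at or above the median level, 60.5% had a difference below 0, the median was −0.037 and 17.1% were lower with an unadjusted p below 0.05. The 82 members in that range had a median of −0.11, with 71 below 0 and 29 lower at that p. All Flt3 KO values lay below those of WT for 55 of these members, beside 3692 of the 9969 genes. Between log2 intensities of 9 and 10, where 30 members lay, the median was −0.10 for the members and −0.044 for all 1203 genes; between 8 and 9 all 15 members were below 0, with medians of −0.12 and −0.054. An unadjusted p below 0.05, in either direction, was reached by 28.9% of all genes between 8 and 9, beside 4 of 15 members. Between 9 and 10 it was 30% beside 12 of 30, and between 10 and 11 33.8% beside 6 of 19. Between 6 and 8 it was 23.1% beside 6 of 14, and above 11 31.2% beside 1 of 4. Counted in either direction, part of the members' excess over all genes at that p was shared by equally bright genes. Counting lower genes only, 29 of the 82 members at or above the median level reached it. That compares with 17.1% of all genes at or above that level and 10.1% of all genes. Cyclic loess normalization, which removes differences between arrays that follow brightness, brought the members' median to −0.059 and left 66 of 90 below 0. The 8 members below the median level, most of them tissue isoforms, had a median of 0.027, with 3 of 8 below 0.

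Both Flt3 KO arrays carried the lean. Relative to the WT mean of each gene, the median of the members was −0.12 in Flt3 KO replicate 1, where 74 of 90 lay below that mean; the second Flt3 KO array had a median of −0.078 and 70 such genes. The WT arrays were at −0.013 and 0.013, equal and opposite by construction because their own mean was the reference. By construction the same −0.12 and −0.078 are the members' medians with the second or the first Flt3 KO array left out. The monocyte and macrophage markers summed higher in the second Flt3 KO array. With each array left out in turn, 65 of the 74 lower genes stayed below 0 in all 4 fits and 6 of the 16 higher genes stayed above 0. The summed intensity of the pDC markers was 39963 and 39535 in WT, against 34378 and 34513 in Flt3 KO, and the part of these and of the monocyte and macrophage markers in the lean was not tested.

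Complex I, the NADH dehydrogenase through which most electrons enter the chain, had a median of −0.12 over 34 subunits, of which 31 were below 0 and 12 were lower with an unadjusted p below 0.05. Over all genes 50.3% were below 0 and 10.1% lower at that p. Among genes at or above the median level these shares were 60.5% and 17.1%. By the parts of complex I, the electron input module at the tip of the matrix arm had a median of −0.12 (10 of 10 below 0), the quinone module −0.096 (4 of 5) and the membrane arm −0.12 (16 of 18). The lowest p belonged to Ndufa5, an accessory subunit of the quinone module, at 9.71 and 9.76 in WT, against 9.53 and 9.41 in Flt3 KO. All Flt3 KO values of Ndufa5 lay below those of WT, and the difference was −0.27 (SE 0.061, limma adjusted p = 0.085). Ndufs5, an accessory subunit of the membrane arm, was at 8.47 and 8.54 in WT, against 8.21 and 8.27 in Flt3 KO, a difference of −0.26 (SE 0.065, limma adjusted p = 0.10). Ndufc1, a small membrane arm subunit, was at 7.99 and 7.94 in WT, against 7.70 and 7.72 in Flt3 KO, a difference of −0.26 (SE 0.067, limma adjusted p = 0.11), and its second, dimmer probe set gave −0.34. In each of these 3 genes the genotypes were separated by more than the gap between replicates. Ndufa5 alone among complex I genes passed the threshold under 2 alternatives, with arrays centred on their median (−0.30, adjusted p = 0.040) and with dim genes left out (adjusted p = 0.043).

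The subunits of complex I that hold its flavin or iron-sulfur clusters, or line the quinone site, had differences between −0.16 and −0.064. Ndufv1, which binds the flavin and takes electrons from NADH, was at 9.59 and 9.62 in WT, against 9.42 and 9.47 in Flt3 KO, a difference of −0.16 (SE 0.054, limma adjusted p = 0.19). Its iron-sulfur partners Ndufv2 and Ndufs1 had differences of −0.13 and −0.12, and the iron-sulfur subunits Ndufs8 and Ndufs7 −0.16 and −0.064. Ndufs3, a core subunit of the quinone module, was at −0.096, with a second probe set at −0.093. Ndufs1 overlapped between genotypes, at 7.41 and 7.46 in WT, against 7.21 and 7.42 in Flt3 KO. Only 3 of the 34 complex I genes were above 0, named here after their values were seen: Ndufb3 at 0.17, Ndufa9 at 0.16 and Ndufa11 at 0.0053. Ndufb3, a small membrane arm subunit, was the single complex I gene whose Flt3 KO values (7.26 and 7.32) both exceeded those of WT (7.15 and 7.09). Ndufb1 had no probe set with a single symbol and was not analysed here. Ndufb4 was read only by probe sets shared with its near copy Ndufb4b, of which the brighter was at 9.07 and 9.06 in WT, against 8.87 and 8.84 in Flt3 KO.

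**Figure D1:**
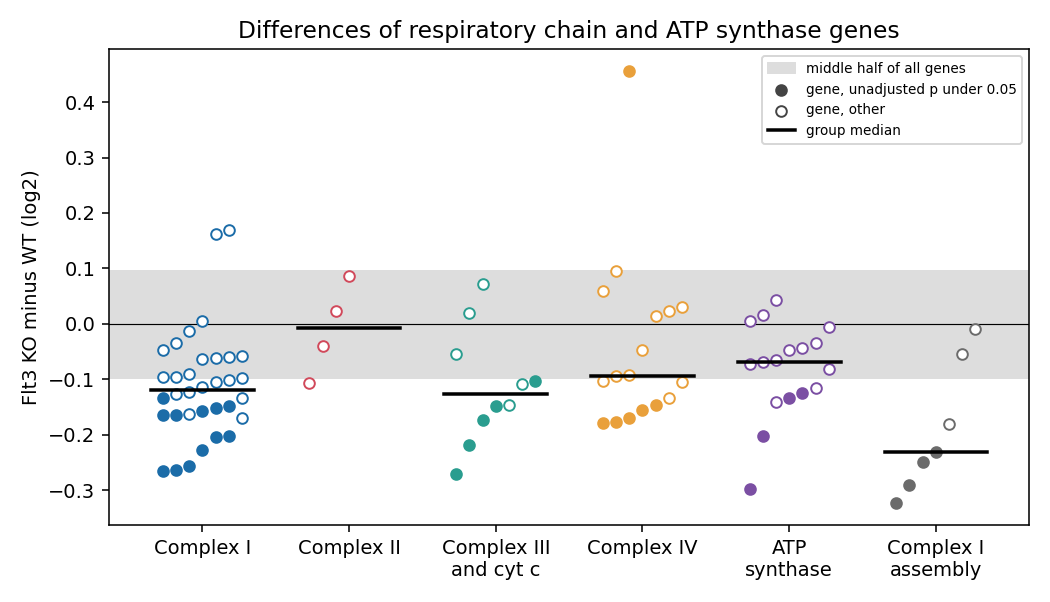
Difference (Flt3 KO minus WT, log2) of each gene by complex; filled points had an unadjusted limma p under 0.05, black bars are group medians and the grey band spans the lower to the upper quartile of all genes. Complex II sits around 0, the other groups lie mostly below 0, and Cox6b2 stands alone at 0.46.

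Complex II, succinate dehydrogenase, which is the citric acid cycle enzyme of the chain and is encoded wholly in the nucleus, had a median of −0.0078 over its 4 subunits, 2 above and 2 below 0. None was with an unadjusted limma p below 0.05, and the genotypes overlapped for all 4. Sdha, the flavoprotein that oxidises succinate, was at 10.18 and 10.40 in WT, against 10.35 and 10.41 in Flt3 KO, a difference of 0.086 (95% interval −0.091 to 0.26). Sdhb, the iron-sulfur subunit, had a difference of −0.039 (95% interval −0.18 to 0.10). The membrane anchors Sdhc and Sdhd were at −0.11 and 0.024. The median turned to 0.036 under quantile normalization and 0.044 under cyclic loess. Both shifts were larger than 0.041, the SD between replicates of the array medians of these genes. The paralog Ndufa4l2, outside the complexes, was dim and at −0.053. Whether complex II differed from the other complexes was not tested.

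Complex III, which oxidises coenzyme Q and reduces cytochrome c, had with cytochrome c a median of −0.13 over 10 genes, with 8 below 0 and 5 lower with an unadjusted p below 0.05. Lower at that p were 10.1% of all genes and 17.1% of genes at or above the median level. The 5 small accessory subunits of complex III were all below 0, with a median of −0.11. Uqcr10, one of them, was at 9.54 and 9.52 in WT, against 9.29 and 9.33 in Flt3 KO, a difference of −0.22 (SE 0.054, limma adjusted p = 0.099). Uqcr11 was at 9.13 and 9.15 in WT but at 8.75 and 8.99 in Flt3 KO with a wide gap between the Flt3 KO replicates; its difference was −0.27 (SE 0.083, limma adjusted p = 0.16) and ranged from −0.39 to −0.15 with an array left out. The redox-centre subunits went different ways: Cyc1, the haem-bearing cytochrome c1, was at 9.08 and 9.06 in WT, against 8.86 and 8.93 in Flt3 KO (difference −0.17, SE 0.058, limma adjusted p = 0.19), and Uqcrfs1, the Rieske iron-sulfur protein, overlapped between genotypes (difference 0.072). The core proteins Uqcrc1 and Uqcrc2, which scaffold the matrix side, were at 0.020 and −0.15.

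Cycs, the mobile cytochrome c that also triggers apoptosis when released, was at 9.84 and 9.90 in WT, against 9.68 and 9.76 in Flt3 KO, a difference of −0.15 (SE 0.055, limma adjusted p = 0.24). Its 3 probe sets disagreed. The second was at −0.041, and the third, dim on every array, was at 4.25 and 4.01 in WT, against 4.85 and 4.84 in Flt3 KO, a difference of 0.72. With probe sets averaged the gene's difference was 0.18, so its direction depends on that choice. Of the 18 members with several probe sets, 14 had one sign throughout; the other 4 were Cycs, Atp5pb, Cox7a2l and Ndufa11, of which the last 3 lay within 0.06 of 0 in every probe set.

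Complex IV, cytochrome c oxidase, hands electrons to oxygen and has several subunits in more than 1 isoform. Its 10 ubiquitous nuclear subunits, with Ndufa4 counted among them, were all below 0, with a median of −0.14. The replicates of the genotypes did not overlap for 8, and 5 were lower with an unadjusted p below 0.05. Such downward separation was seen for 25.3% of all genes and for 3692 of the 9969 genes at or above the median level. Lower at that p were 10.1% of all genes and 17.1% of those 9969. Cox7b was at 10.77 and 10.73 in WT, against 10.56 and 10.58 in Flt3 KO, a difference of −0.18 (SE 0.046, limma adjusted p = 0.11), and its second probe set gave −0.22. Cox6c was at 10.70 and 10.66 in WT, against 10.50 and 10.52 in Flt3 KO, a difference of −0.17 (SE 0.047, limma adjusted p = 0.13). Ndufa4, first assigned to complex I and now to complex IV, was at −0.18, Cox7a2 at −0.16 and Cox8a at −0.15. Cox4i1, the regulatory subunit that binds ATP, had −0.10, Cox5a −0.093, Cox5b −0.10 and Cox6b1 −0.13, none of them with an unadjusted p below 0.05. Cox7c was read only by 3 probe sets shared with a predicted gene; the brightest was at 10.71 and 10.75 in WT, against 10.68 and 10.75 in Flt3 KO.

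The tissue isoforms of complex IV, 6 genes whose proteins replace a ubiquitous subunit in lung, muscle, heart or testis, had a median of 0.045, and 5 of 6 were above 0. Cox6b2, the testis form of Cox6b1, had the largest difference of all 90 members and the lowest adjusted p. It was at 5.64 and 5.52 in WT, against 5.96 and 6.12 in Flt3 KO, a difference of 0.46 (SE 0.10, limma adjusted p = 0.075), from a WT level below that of the median gene. The other isoforms lay closer to 0: Cox4i2 at 0.031, Cox7a1 at 0.096, Cox7b2 at 0.060, Cox8b at 0.023 and Cox8c at −0.048. All 5 were below the median gene's level on the arrays, and centring of the arrays turned Cox4i2 and Cox8b below 0. Cox7a2l, a relative of the Cox7a subunits that joins complexes III and IV into supercomplexes, was at 0.014.

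The muscle and heart isoform Cox6a2, which the rule leaves out and which is also a pDC marker, was set beside its ubiquitous counterpart Cox6a1. Cox6a2 was at 9.40 and 9.23 in WT, against 8.52 and 8.60 in Flt3 KO and fell by 0.76 (SE 0.075, limma adjusted p = 0.0069). The call was lost with any single array left out, at differences of −0.84 to −0.67, but those fits called far fewer genes or none. Cox6a1 was at 11.30 and 11.29 in WT, against 11.08 and 11.33 in Flt3 KO, so that the genotypes overlapped, with a difference of −0.095 (95% interval −0.28 to 0.089). The intervals of the 2 genes did not overlap, that of Cox6a2 running from −0.93 to −0.58, but the difference between them was not tested.

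ATP synthase, the rotary enzyme that turns the proton gradient into ATP, had a median of −0.068 over 17 genes, with 14 below 0 and 4 lower with an unadjusted p below 0.05. Among genes at or above the median level 60.5% were below 0 and 17.1% lower at that p, beside 50.3% and 10.1% of all genes. Atp5b, the catalytic beta subunit, was at 11.45 and 11.45 in WT, against 11.43 and 11.47 in Flt3 KO, a difference of 0.0055 (95% interval −0.092 to 0.10). The gamma subunit Atp5c1, the central shaft, had a difference of −0.0066. The alpha subunit Atp5a1 had −0.072, with both Flt3 KO values below those of WT. Atp5e, the small epsilon subunit at the foot of the shaft, was at 9.27 and 9.23 in WT, against 9.06 and 9.04 in Flt3 KO, a difference of −0.20 (SE 0.055, limma adjusted p = 0.13). Atp5j, a subunit of the peripheral stalk, was at 9.65 and 9.43 in WT, against 9.16 and 9.32 in Flt3 KO, a difference of −0.30 (SE 0.089, limma adjusted p = 0.15) with wide gaps between replicates. Atp5md, a small membrane subunit, was at −0.13, and its 3 probe sets ran from −0.17 to −0.12. The genes Atp5g1, Atp5g2 and Atp5g3, which encode the same ring subunit behind different import sequences, were at −0.065, −0.12 and −0.035, none with an unadjusted p below 0.05.

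**Figure D2:**
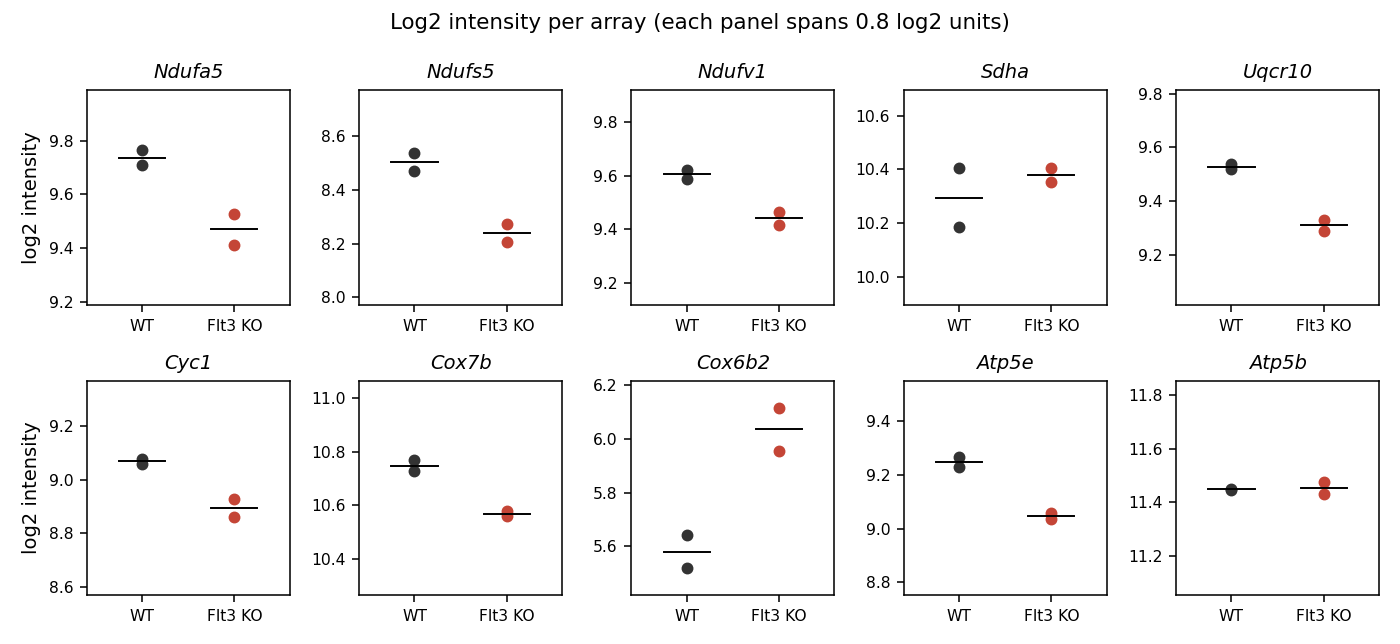
Log2 intensity on each of the 4 arrays for 10 members, with black points for WT, red points for Flt3 KO and bars for the mean of 2 replicates; each panel spans the same range. Flt3 KO points lie below both WT points for Ndufa5, Ndufs5, Ndufv1, Uqcr10, Cyc1, Cox7b and Atp5e and above them for Cox6b2, while the genotypes overlap for Sdha and Atp5b.

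Assembly factors, which build the complexes without remaining in them, had the lowest median of these groups. The 7 complex I factors named Ndufaf1 to Ndufaf7 were all below 0 with a median of −0.23, and 4 were lower with an unadjusted p below 0.05. Lower at that p were 10.1% of all genes and 17.1% of genes at or above the median level. Ndufaf2, a chaperone of late assembly, was at 7.07 and 7.04 in WT, against 6.73 and 6.73 in Flt3 KO, a difference of −0.32 (SE 0.074, limma adjusted p = 0.085), and passed the threshold with dim genes left out (adjusted p = 0.047). Ndufaf3 was at 7.10 and 7.11 in WT, against 6.71 and 6.92 in Flt3 KO, a difference of −0.29 (SE 0.092, limma adjusted p = 0.17), and Ndufaf6 had −0.25. A separate list of assembly factors under other names had 41 measured members, with a median of −0.16, 32 below 0, 1 that fell and 0 that rose; 16 were lower and 0 higher with an unadjusted limma p below 0.05. The one that fell was Cmc1, a copper-binding factor of complex IV assembly. It was at 8.29 and 8.34 in WT, against 7.84 and 7.89 in Flt3 KO, a difference of −0.45 (SE 0.065, limma adjusted p = 0.020). The call was lost without the intensity trend (limma adjusted p = 0.073). It was also lost without any one of the arrays, at differences from −0.48 to −0.43, but those fits called far fewer genes or none.

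Further genes of the pathway were read from lists. Of the mitochondrially encoded subunits, 2 had a probe set with a single symbol. ND3, a complex I subunit, was at 8.65 and 8.39 in WT, against 7.90 and 7.91 in Flt3 KO and fell by 0.62 (SE 0.092, limma adjusted p = 0.022); its second probe set gave −0.29. COX2, the subunit of complex IV that receives electrons from cytochrome c, was at 11.50 and 11.49 in WT, against 11.40 and 11.28 in Flt3 KO, a difference of −0.16 (limma adjusted p = 0.19). The ND3 call was lost without the intensity trend (limma adjusted p = 0.079) and with all probe sets tested together (0.053). It was also lost without any one array, at differences from −0.75 to −0.48, but those fits called far fewer genes or none. Atpif1, the inhibitor that stops ATP synthase from running in reverse, was at 10.60 and 10.41 in WT, against 10.24 and 10.23 in Flt3 KO, a difference of −0.27 (limma adjusted p = 0.11).

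Coenzyme Q synthesis genes were below 0 in 12 of 12, with a median of −0.13, of which 2 were lower with an unadjusted p below 0.05. The 3 with the lowest p were Coq2, the prenyltransferase of the pathway, at −0.25, Coq9 at −0.19 and Coq3, a methyltransferase, at −0.16. Citric acid cycle and pyruvate dehydrogenase genes had a median of −0.027 over 18, which turned to 0.025 after cyclic loess and 0.021 after quantile normalization, and 1 was lower at that p, the pyruvate carrier gene Mpc1 at −0.19; Pdhb and Suclg1 were at −0.16 and −0.12. Carriers of nucleotides, phosphate and protons had a median of −0.0089 over 9, with 1 lower at that p, the nucleotide exchanger gene Slc25a4 at −0.13; Vdac1 and Ucp3 were at −0.12 and 0.13. No gene of these 3 lists passed the threshold. With an unadjusted p below 0.05, 10.1% of all genes and 17.1% of genes at or above the median level were lower.

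Regulators of mitochondrial biogenesis went both ways, with a median of −0.064 over 22 genes (−0.026 after cyclic loess and −0.033 after quantile normalization), 1 that rose and 0 that fell, and 4 higher and 3 lower with an unadjusted limma p below 0.05. Over all genes 6.95% were higher and 10.1% lower at that p. Polg2, the accessory subunit of the mitochondrial DNA polymerase, was at 7.69 and 7.66 in WT, against 8.11 and 7.99 in Flt3 KO and rose by 0.37 (SE 0.072, limma adjusted p = 0.049), at the edge of the threshold. The call was lost with arrays centred on their median (limma adjusted p = 0.050) and with all probe sets tested together (0.097). The same held without the intensity trend (0.12) and with the replicate block (0.068). It was also lost without any one array, at differences from 0.32 to 0.43, but those fits called far fewer genes or none. Myc and the mitochondrial helicase gene Twnk were at 0.43 and −0.36, neither past the threshold. Among the transcription factors known for respiratory genes, Nrf1 was at 0.11 and Gabpa at −0.19, both named after their values were seen, and neither passed.

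Other large housekeeping groups were read in the same way, with genes picked by the start of their symbols. The lists so took in genes that are not subunits. Among them were Rps19bp1 and Rps23rg1 in the cytosolic ribosomal list, and Psmc3ip, Psmd5, Psmd9 and Psmd10 in the proteasome list. Rps23rg1 was among the higher genes counted below, and Psmd5 and Psmd10 were among the lower ones. The 77 mitochondrial ribosomal protein genes had a median of −0.12, with 61 below 0 and 22 lower and 0 higher with an unadjusted p below 0.05. The proteasome list had −0.082 over 40 genes, with 32 below 0 and 7 lower and 0 higher at that p. Psmb9, an immunoproteasome subunit, fell by 0.27 (limma adjusted p = 0.048). The 63 genes of the cytosolic ribosomal list had −0.0083, with 35 below 0 and 4 lower and 3 higher at that p. Over all genes 10.1% were lower and 6.95% higher at that p, and 17.1% of genes at or above the median level were lower. Rpl3l, the muscle form of a ribosomal protein, fell by 0.77 (limma adjusted p = 0.049). Both calls were lost without WT replicate 1 or 2, where 0 of all genes were called by limma (2068 and 2650 with an unadjusted p below 0.05). After cyclic loess normalization the medians were −0.059 for the respiratory genes, −0.066 for the mitochondrial ribosomal proteins, −0.029 for the proteasome and 0.020 for the cytosolic ribosome. These medians share arrays and scaling and were not tested against each other.

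Promoters are shown for the members with the lowest p among the lower genes of complexes I, III and IV, for Sdha of complex II and for Cox6b2, the member with the highest difference. Each is the 250 bases before the gene's farthest upstream start in RefSeq, build GRCm38.p6, written 5′ to 3′ along the gene, with matches to the motifs below in capitals.
Ndufa5, chr6:24527691-24527940, minus strand: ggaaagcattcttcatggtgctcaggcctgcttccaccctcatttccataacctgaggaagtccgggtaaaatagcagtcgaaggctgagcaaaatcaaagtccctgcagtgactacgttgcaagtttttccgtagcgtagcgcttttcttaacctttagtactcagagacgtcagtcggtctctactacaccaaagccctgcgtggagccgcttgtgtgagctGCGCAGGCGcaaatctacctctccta
Uqcr10, chr11:4704345-4704594, minus strand: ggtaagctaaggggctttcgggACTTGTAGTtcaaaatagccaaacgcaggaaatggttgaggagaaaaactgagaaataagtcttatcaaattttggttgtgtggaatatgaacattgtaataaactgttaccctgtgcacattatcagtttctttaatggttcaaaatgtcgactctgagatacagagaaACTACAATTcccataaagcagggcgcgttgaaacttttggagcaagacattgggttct
Cox7b, chrX:106015450-106015699, plus strand: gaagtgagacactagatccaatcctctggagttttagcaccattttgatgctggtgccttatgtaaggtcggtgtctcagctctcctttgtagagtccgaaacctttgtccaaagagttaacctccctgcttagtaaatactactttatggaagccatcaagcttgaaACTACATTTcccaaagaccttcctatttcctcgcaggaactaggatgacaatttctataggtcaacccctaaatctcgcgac
Sdha, chr13:74350241-74350490, minus strand: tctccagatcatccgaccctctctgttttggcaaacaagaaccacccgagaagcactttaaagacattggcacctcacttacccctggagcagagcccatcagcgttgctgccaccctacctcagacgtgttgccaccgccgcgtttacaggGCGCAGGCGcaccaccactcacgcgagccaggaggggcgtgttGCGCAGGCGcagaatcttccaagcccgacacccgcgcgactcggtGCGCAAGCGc
Cox6b2, chr7:4753095-4753344, minus strand: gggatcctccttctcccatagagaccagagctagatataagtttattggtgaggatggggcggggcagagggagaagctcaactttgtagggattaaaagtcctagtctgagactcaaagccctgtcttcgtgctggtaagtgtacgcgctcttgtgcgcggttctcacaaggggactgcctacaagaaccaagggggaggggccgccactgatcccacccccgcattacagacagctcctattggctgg

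The motifs searched, on both strands, were GCGCATGCG of NRF1, CCGGAAG of the ETS family that includes GABPA, GCCATCTT of YY1, and, added after these promoters were read, the open form GCGCANGCG, which contains the first, and ACTACANNT, the first letters of a longer ZNF143 site. The NRF1 and ZNF143 letters were shortened after a first search with longer forms had been seen. NRF1 and GABPA are known activators of respiratory genes. Ndufa5 held 1 match to GCGCANGCG, Sdha 3, Uqcr10 held 2 matches to ACTACANNT, 1 on each strand, Cox7b 1, and Cox6b2 none of the 5. Of 74 members with a promoter in the table, 8 (10.8%) held GCGCATGCG, 15 (20.3%) GCGCANGCG, 13 (17.6%) CCGGAAG, 1 (1.35%) GCCATCTT and 6 (8.11%) ACTACANNT in at least 1 promoter. Over all 15562 genes tested with a promoter the shares were 2.38%, 8.76%, 10.7%, 1.86% and 4.85%. Of the 27 members lower with an unadjusted p below 0.05, 1 held GCGCATGCG, 3 GCGCANGCG, 5 CCGGAAG, 1 GCCATCTT and 3 ACTACANNT. Of the other 47 members, 7, 12, 8, 0 and 3 did. A match is a description of letters and not of a bound site.

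The precision of the comparison can be read from the intervals. The median SE of the 90 differences was 0.062, and for 87 genes the 95% interval lay within 0.5 of 0 on the log2 scale; the lowest and highest bounds were −0.51 and 0.69. Differences of the size seen in Flt3 or Cox6a2 therefore lay outside the intervals of the members, whereas a lean of about 0.1 was not detectable in single genes at 2 samples a group. With 2 samples against 2, the smallest two-sided p of an exact permutation over samples is 0.3333.

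**Figure D3:**
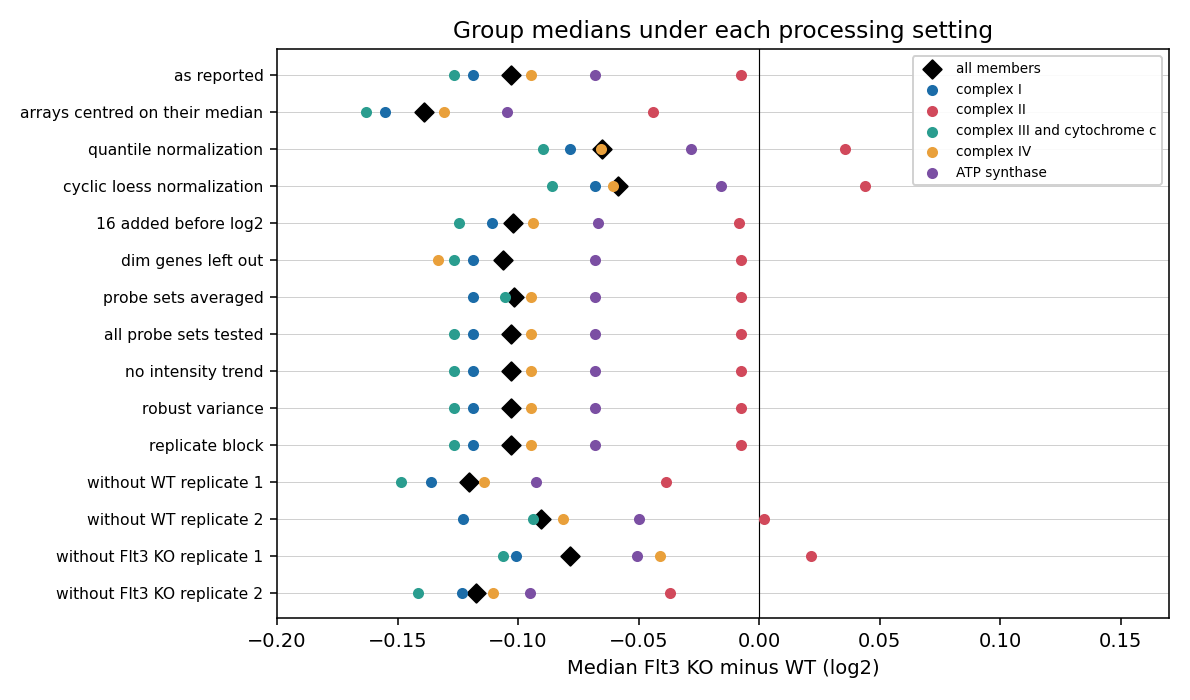
Median difference (Flt3 KO minus WT, log2) of all members and of each complex, as reported and under 14 alternative settings. The median of all members stayed below 0 throughout, from −0.14 to −0.059, while that of complex II crossed 0.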

How the data were processed

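The series holds 4 arrays of splenic pDCs, 2 WT and 2 Flt3 KO, grouped by the labels. The deposited value table gives the authors' intensity of 30177 probe sets on a linear scale; for background correction, summarisation and scaling, the sources used here give no method. No detection call accompanies the values, and the number of arrays limits the precision. Probe sets with 1 gene symbol in the platform annotation (21789; 1621 had several and 6767 none) represented 19938 genes. The probe set with the highest mean log2 value was kept per gene.

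Values were converted to log2 with no constant and no filter. limma 3.58.1 in R 4.3.3 (lmFit, eBayes with an intensity trend) was fitted on all genes without a covariate, with Benjamini-Hochberg adjustment over all of them; the steps were tested on simulated data. SE and 95% intervals are limma's moderated ones, and SD and n are those of the 2 arrays of a group. Lists are described by counts and medians. Alternatives covered scaling, an added constant of 16, dim genes, probe sets, the variance model, a replicate block and each array left out.

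Named genes were all members past the threshold, the 3 members with the lowest p in each complex, the catalytic subunits and the isoform families, and of each other pathway list up to 4 called genes or the 3 with the lowest p. Members and lists were chosen with earlier results of these data known. Same-numbered replicates did not deviate together (correlation of deviations from the group means −0.017), so the numbers were not taken as pairs. RefSeq GRCm38.p6 tables supplied promoters, found for 74 of the 90 members, and checked symbols.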

Additional observations from a re-analysis of the deposited data

How the results depend on the processing

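With all arrays kept, the count of called genes moved from 476 to 724 with dim genes left out, 219 with all probe sets tested together and 108 without the intensity trend, and it ran from 0 to 54 with an array left out. No member was called higher in any setting; 1 member was called lower with arrays centred on their median and 2 with dim genes left out. The replicate block gave 375 called genes and 0 called members. Centred, quantile and cyclic loess scaling gave medians of −0.14, −0.065 and −0.059 for all members, −0.16, −0.078 and −0.068 for complex I, −0.16, −0.090 and −0.086 for complex III with cytochrome c, −0.13, −0.066 and −0.061 for complex IV and −0.10, −0.028 and −0.016 for ATP synthase; complex II was at 0.036 and 0.044 under the last 2. Centring shifted the median of all genes from −0.0010 to −0.037, so every difference moved by that amount. Scaling also moved the balance of called genes, from 215 higher and 261 lower to 217 and 443 centred, 281 and 233 by quantile and 303 and 219 by loess. Complex IV was at −0.13 with dim genes left out, which removes the isoforms. With an array left out, the medians ran from −0.12 to −0.078 for all members, −0.14 to −0.10 for complex I, −0.038 to 0.021 for complex II, −0.15 to −0.094 for complex III, −0.11 to −0.041 for complex IV and −0.095 to −0.050 for ATP synthase.

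The signs below are those of the 50 members named by rule. The probe sets of Cycs averaged to 0.18. Centring put Atp5b at −0.031, Cox4i2 at −0.0057, Cox7a2l at −0.023, Cox8b at −0.013, Sdhd at −0.013 and Uqcrc1 at −0.016. Quantile normalization put Atp5c1 at 0.029, Cox4i2 at −0.018, Cox8b at −0.016 and Sdhb at 0.0049. Loess put Atp5c1 at 0.038, Atp5g3 at 0.017, Cox8b at −0.019 and Sdhb at 0.0081, and averaging put Cox7a2l at −0.023. With an array left out the sign turned in Atp5b (−0.015 to 0.026), Atp5c1 (−0.037 to 0.024), Cox4i2 (−0.084 to 0.15), Cox6a1 (−0.22 to 0.031), Cox7a2l (−0.017 to 0.044), Cox8b (−0.019 to 0.066), Cox8c (−0.14 to 0.046), Sdha (−0.024 to 0.20), Sdhb (−0.089 to 0.011), Uqcrc1 (−0.0087 to 0.049) and Uqcrfs1 (−0.065 to 0.21). Outside the rule it also turned in Atp5h, Atp5mpl, Atp5pb, Ndufa11, Ndufab1, Ndufaf4, Ndufaf7 and Ndufb6, whose values lay between −0.19 and 0.12.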
